A study of Mus musculus with 2 samples.

Results

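The cytosolic ribosomal protein genes were examined in microglia sorted from the mouse brain after sham surgery. They were chosen by symbol among the protein-coding rows of the count tables: symbols that start with Rpl or Rps and a digit, together with Rplp0, Rplp1, Rplp2 and Rpsa, without the S6 kinase genes and without pseudogenes. The rule found 86 of the 53801 genes in the tables. Of these, 77 were core proteins of the ribosome, 46 of the large subunit and 31 of the small subunit. Another 8 were paralogs or a retrogene of a core gene. The last one, Rps19bp1, encodes a protein that binds Rps19 and is not itself a ribosomal protein, so it enters only counts over all 86 genes and is in no list of core genes or paralogs.

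The ribosome is built from a small subunit, which reads the mRNA, and a large subunit, which joins amino acids. The core proteins enter it in equal numbers, apart from the paired proteins of the stalk. Their mRNAs are among the most abundant of most cells, and many start with a run of pyrimidines (C or T) at the transcription start, the terminal oligopyrimidine (TOP) element, through which mTOR and Larp1 tie their translation to growth signals.

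RNA came from 2 sham samples, each from 1 mouse brain, so that every mean and SD covers 2 mice. Both mice were hemizygous Cx3cr1(CreER/WT) on C57BL/6, with the tamoxifen-dependent Cre recombinase knocked into 1 allele of Cx3cr1, and had received tamoxifen at 75 mg/kg per day for 4 days. Sham surgery followed 14 days after the first injection, and CD11c-Ly6G-CD11b+CD45low cells were sorted from the left hemisphere 3 days later; the deposited design text gives male mice of 8 to 10 weeks, the study's methods give older mice of both sexes, and the sample labels give a treatment of none. The MCAO libraries were not analysed here, and with 1 group no test between conditions was possible.

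Library 1 held 23381026 counts and library 2 held 41142609, and the 13445 genes that reached 10 counts in each are called counted below. A level is given in counts per 1000000 counts on genes (CPM), and where genes are compared with each other in CPM per kb of the principal transcript. The 10 microglia markers, among them P2ry12 and Tmem119, summed to 39111 and 44410 CPM, and all were detected. Of these 10, 6 were higher and 4 lower in library 2. The sort gate left out Ly6G+ cells, yet 12 of 13 neutrophil markers were higher in library 2, and they summed to 5091 and 62414 CPM in libraries 1 and 2. Of the lists for other cells, 6 of 6 erythroid markers (0.214 and 15.0 CPM, with Hbb-bs, Hba-a2 and Hbb-bt among those at 0 in library 1), 5 of 5 choroid plexus markers (24.3 and 370 CPM), 5 of 5 markers of dividing cells (19.2 and 92.3 CPM) and 5 of 5 B cell markers (570 and 778 CPM) were also higher in library 2. Of all counted genes 38.5% were higher in library 2. In the lists for other cells, 0 of the 6 erythroid, 4 of the 5 choroid plexus and 2 of the 5 B cell markers were counted. The B cell sum thus rests almost wholly on 2 genes. The mitochondrially encoded genes took 0.766% and 0.391% of the counts.

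The sequences around the annotated transcription start were searched for pyrimidine runs, on either side of the start. RefSeq (GRCm38.p6) gave a promoter for 57 of the 77 core genes and for all 8 paralogs. Each line below holds 15 bases before and 15 bases from the RefSeq start, on the strand of the gene, and capitals mark unbroken runs of at least 6 C or T. Where a gene had several RefSeq starts, the one nearest the start of its principal transcript was taken for these lines. Rpl13 was one of the highest large subunit genes, Rps27 and Rps27rt are a gene and its retrogene, Rps21 stood lowest among the small subunit genes in the ratio of libraries, Rpl24 had the fewest counts of the core genes, and Rpl7l1 and Rps27l were the paralogs with the most counts.
Rpl13 (chr8:123102335-123102364, plus strand): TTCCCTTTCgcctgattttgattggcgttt
Rps27 (chr3:90213634-90213663, minus strand): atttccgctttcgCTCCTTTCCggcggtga
Rps27rt (chr9:114982725-114982754, minus strand): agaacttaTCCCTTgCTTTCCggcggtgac
Rps21 (chr2:180257364-180257393, plus strand): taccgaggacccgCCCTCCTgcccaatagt
Rpl24 (chr16:55966260-55966289, plus strand): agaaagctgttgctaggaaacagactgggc
Rpl7l1 (chr17:46782642-46782671, minus strand): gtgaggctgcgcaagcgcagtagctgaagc
Rps27l (chr9:66946071-66946100, plus strand): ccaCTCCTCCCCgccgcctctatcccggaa
In the counts that follow, a gene was taken as a match if any of its RefSeq starts had the run or motif. A run of at least 6 C or T on the strand of the gene lay anywhere in such 30 bases in 35 of the 57 core genes (61.4%). It did so in 4 of the 8 paralogs, and in 32.7% of the 27025 genes with a promoter. The marked runs of Rpl13 and Rps27l ended before the RefSeq start, so a match in these bases does not by itself show a TOP element. In the 300 bases from 250 before to 50 after the start, GGAAG, a core of sites that ETS factors bind, was found on either strand in 52 of the 57 (91.2%) and in 73.9% of all genes. TATAAA, searched likewise on either strand, was found in 6 (10.5%) and in 15.7% of all genes. These are matches of letters in annotated windows, and the count tables do not show where transcription began.

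All 77 core genes were counted in both libraries. The 86 genes together took 312167 counts in library 1, or 1.34% of the total (95% Wilson interval 1.33 to 1.34, for counting error only), and 408830 counts in library 2, or 0.994% (0.991 to 0.997). The mean share was thus 1.16%, and the gap between the mice was far wider than the counting error. Large subunit genes took 0.741% and 0.550%, small subunit genes 0.567% and 0.412%. By contrast, the 78 genes of mitochondrial ribosomal proteins, which serve the separate ribosome of the mitochondrion, took 0.267% and 0.290%. In bulk RNA, fewer cells of a type and less RNA per cell cannot be told apart.

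The plot of core genes by subunit shows how far the levels lay apart and how alike their order was in both mice. Over the 77 core genes the mean level ran from 0.747 to 644 CPM per kb, with a median of 152, and the 90th percentile was 7.56 times the 10th (389 against 51.5). Across these 77 genes the log2 levels of both libraries had a Pearson r of 0.98 and a Spearman rho of 0.97, given as a description, since genes are not independent replicates and each shares its length and sequence in both libraries.

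**Figure D1:**
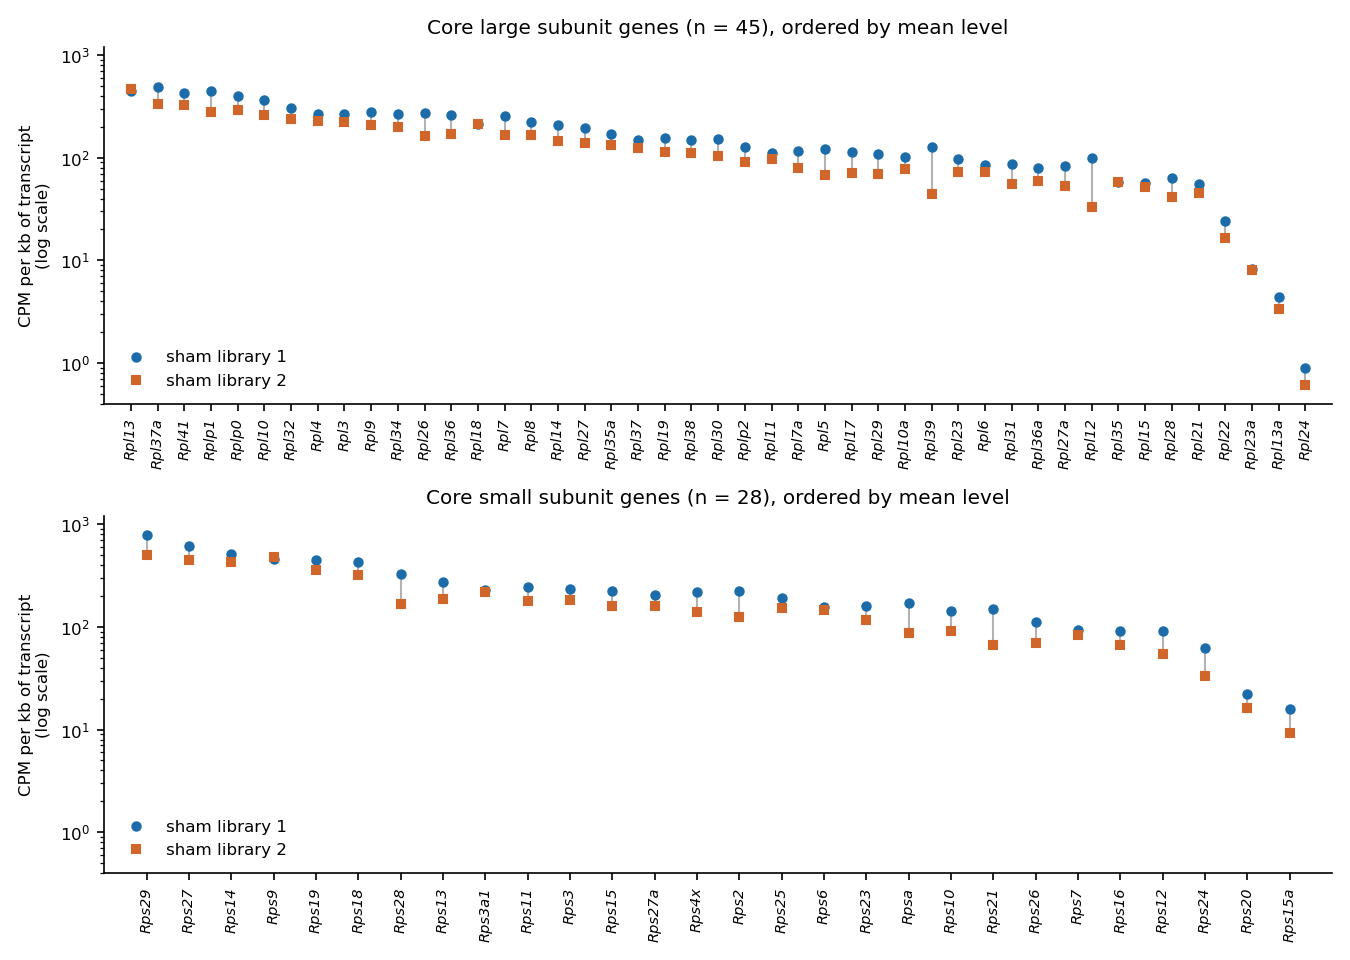
Level of core genes in CPM per kb of principal transcript (vertical axis, log scale) in sham library 1 (circles) and sham library 2 (squares), with a grey line joining both; genes are ordered by mean level along the horizontal axis, 45 of the 46 of the large subunit above and 28 of the 31 of the small subunit below, the others not being reported here. Most squares sit below their circles, and Rpl23a, Rpl13a and Rpl24 fall far under the other large subunit genes.

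Rpl13 and Rpl37a were among the highest large subunit genes per kb. Rpl13 had 451 and 464 CPM per kb in libraries 1 and 2 (457 ± 8.82, SD, n = 2), and Rpl37a had 494 and 338 (416 ± 110, SD, n = 2). The order of these neighbours is within the spread between the mice, since Rpl37a was the higher in library 1 and Rpl13 in library 2.

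The stalk, the flexible arm of the large subunit that recruits translation factors, was measured through Rplp0, Rplp1, Rplp2 and Rpl12. The level of Rplp1 was 447 and 278 CPM per kb, and that of Rplp0, the scaffold of the stalk, was 403 and 294. Rplp2, whose protein pairs with that of Rplp1, had 127 and 91.0 CPM per kb, and Rpl12, which sits at the base of the stalk, had 98.5 and 33.2. Rplp1 and Rplp0 thus stood above Rplp2 and Rpl12 in both libraries.

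Rpl5 and Rpl11 bind the smallest ribosomal RNA together and, outside the ribosome, the p53 regulator Mdm2. Rpl5 had 123 and 67.3 CPM per kb and Rpl11 had 112 and 96.3, so that Rpl5 was the higher in library 1 and Rpl11 in library 2. Of the bases of the Rpl5 transcript 46.6% lay under exons of Fam69a, on the opposite strand, which had 760 and 1990 counts of its own, and the library chemistry does not mark strand, so reads from that stretch cannot be told apart.

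Among small subunit genes, Rps29, Rps27 and Rps14 were the highest per kb. Rps29, which encodes a short zinc-binding protein, had 785 and 503 CPM per kb (644 ± 200, SD, n = 2), the highest mean of all core genes per kb of transcript. Per kb of coding length its mean was 1468 CPM per kb, below the 2119 of the large subunit gene Rpl41. Rps27 had 609 and 454 (531 ± 110, SD, n = 2) and Rps14 had 516 and 433 (474 ± 58.4, SD, n = 2). Their order was the same in both libraries as far as Rps29 goes, and Rps9 (457 and 476 CPM per kb) lay above Rps27 and Rps14 in library 2.

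Rps15a, Rps20 and Rps24 were the lowest small subunit genes per kb of transcript. Rps15a had 16.0 and 9.22 CPM per kb (12.6 ± 4.81, SD, n = 2), Rps20 had 22.4 and 16.1 (19.2 ± 4.46, SD, n = 2), and Rps24 had 61.8 and 33.4 (47.6 ± 20.1, SD, n = 2). Their principal transcripts are annotated at 5179, 3706 and 1613 bases, against coding lengths of 393, 360 and 402 bases. Per kb of coding length the same counts gave 166, 198 and 191 CPM per kb, and their places among the 31 small subunit genes moved to 29, 23 and 25. Their low level per kb of transcript moved with the length used.

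The 3 lowest large subunit genes stayed the lowest by either length. Rpl24 (chromosome 16, 55966275 to 55971435) had 14 and 17 counts, or 0.884 and 0.610 CPM per kb (0.747 ± 0.194, SD, n = 2). Rpl13a had 108 and 144 counts, or 4.41 and 3.34 CPM per kb (3.88 ± 0.756, SD, n = 2), and Rpl23a had 107 and 187 counts, or 8.17 and 8.12 (8.14 ± 0.0394, SD, n = 2). Per kb of coding length they had 1.07, 6.63 and 9.68 CPM per kb and the places 46, 45 and 44 of 46.

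The exons of these 3 genes lie under exons of other annotated genes. For Rpl24, 71.5% of the transcript lay under Gm28037, on the same strand, which had 0 counts in both libraries. For Rpl13a, 59.3% lay under Gm45713 and Mir5121, on the same strand and likewise at 0 counts. For Rpl23a, 55.4% lay under Tlcd1, on the opposite strand, which had 19 and 42 counts. The overlap on the same strand was also found for the paralog Rpl36al (63.1% under Gm49383, at 0 counts).

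In all, 5 core genes had over 50% of their bases under exons of another gene, and their median was 8.14 CPM per kb. Of the other 2, Rps25 had 193 and 154 CPM per kb, a mean above the core median. Rpl35 had 57.7 and 58.3, place 39 of the 46 large subunit genes and below the 25th percentile of the core genes (85.7). Both had an overlap on the opposite strand only, as had Rpl23a. For the 62 core genes with no base under another gene's exon the median was 177 CPM per kb and the lowest was Rps15a. The SD of log2 level over genes was 1.59 for all 77 and 1.18 for these 62. How the counting treated reads in overlapping exons is not given in the sources used here, so the part of the overlap in the low values was not tested.

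Many core genes have processed pseudogenes whose sequence is close to their own, and some share sequence with genes that overlap them. The share of 75-base windows of the principal transcript found in no other gene's annotated transcript, on either strand, was taken as a measure of both. For 38 core genes under 50% of windows were found once, for 29 it was 50% to 90%, and for 10 it was at least 90%. The median levels of these 3 groups were 140, 178 and 152 CPM per kb. Across the 77 core genes the log2 level and the share of windows found once had a Pearson r of 0.01 and a Spearman rho of -0.01, again a description over genes.

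**Figure D2:**
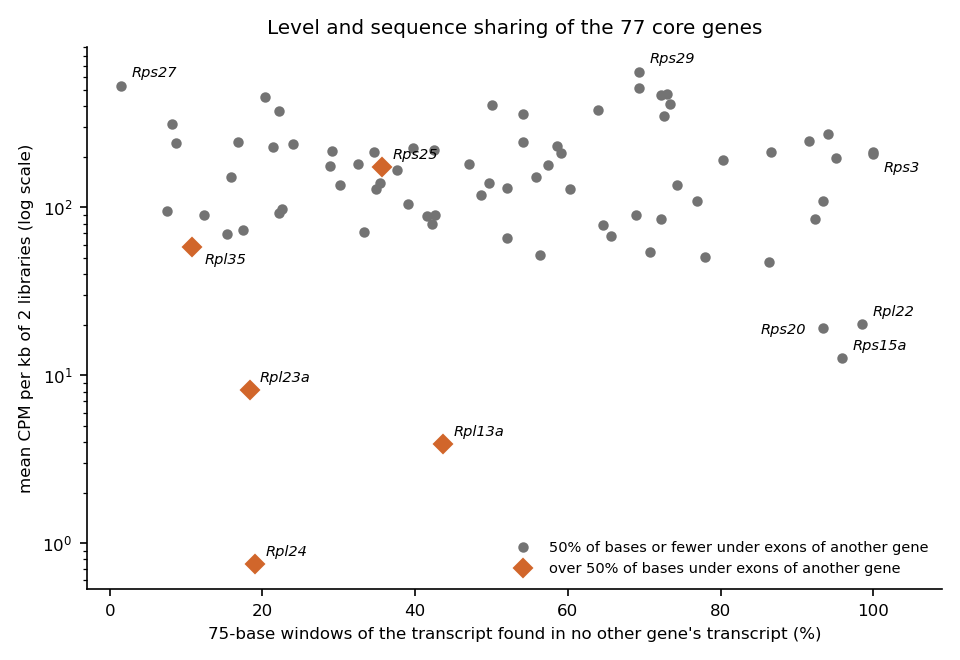
Mean level of each of the 77 core genes in CPM per kb of 2 libraries (vertical axis, log scale) against the percentage of its 75-base windows found in no other gene's transcript (horizontal axis). Diamonds mark the 5 genes with over 50% of their bases under exons of another gene, 3 of which lie below 10 CPM per kb, and circles mark the rest.

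Besides Rps27, the genes with the fewest windows found once were Rpl5 (7.51%), Rpl10 (8.14%), Rpl9 (8.73%) and Rpl35 (10.8%), of which Rpl10 (366 and 258 CPM per kb) and Rpl9 (281 and 206) were among the higher large subunit genes. The rest of the 38, for which the counting could split reads with a near copy or with a gene that overlaps them, included Rpl10a, Rpl11, Rpl13, Rpl13a, Rpl17, Rpl18, Rpl19, Rpl23a, Rpl24, Rpl26, Rpl27, Rpl29, Rpl3, Rpl30, Rpl31, Rpl36, Rpl36a, Rpl6, Rpl7a, Rps10, Rps12, Rps13, Rps18, Rps2, Rps23, Rps25, Rps27a, Rps3a1, Rps4x, Rps6 and Rps7. Windows of Rpl13a, Rpl24, Rpl31, Rpl35 and Rps25 were shared most with a gene at the same place (Gm45713, Gm28037, Tbc1d8, Wdr38 and Trappc4). The values of all these genes are uncertain to that extent.

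Rps27 was the extreme, with 1.48% of its windows found once and 4913 and 6438 counts. It shared 98.5% of all its windows with the retrogene Rps27rt, and the coding sequences of both, 255 bases long, differ at 0 bases. Rps27rt had 117 and 135 counts, and 9.67% of its own windows were found once. How reads of the shared bases were divided between both rows cannot be seen in counts, and 3 pseudogenes share windows too, so the values of both are uncertain.

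Rows annotated as pseudogenes that share a window with a ribosomal protein gene numbered 649, and 93 of them had 0 counts in both libraries. Together they held 7534 and 10560 counts, equal to 2.41% and 2.58% of the counts on the 86 genes. In all, 736 rows outside the 86 genes share a window, these pseudogene rows and overlapping genes among them. They held 61434 and 100448 counts, equal to 19.7% and 24.6%, with no division into shared and other bases. The fullest of the pseudogene rows were Gm5905 with 1035 and 1965 counts and Gm15427 with 662 and 611. Rpl23a-ps3 held 164 and 231 counts, more than the 107 and 187 of Rpl23a itself.

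The large subunit genes together had 173137 and 226197 counts and the small subunit genes 132460 and 169540. The ratio was 1.31 in library 1 (95% interval 1.30 to 1.32, counting error only) and 1.33 in library 2 (1.33 to 1.34), close to one another beside the drop in the share of both. Per gene and kb the order was the other way: the median was 150 and 108 CPM per kb for the large subunit and 219 and 154 for the small subunit. The difference of median log2 levels, large minus small, was -0.55 in library 1 and -0.51 in library 2 (-0.48 for the levels averaged over both). It was 0.85, so with the large subunit higher, among the 10 core genes with at least 90% of windows found once. They include Rpl4, Rpl8, Rpl32, Rps3 and Rps21. Genes with long annotated transcripts are among them in both subunits, namely Rps15a (5179 bases), Rps20 (3706) and Rpl22 (2051).

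Rps27a, which makes a small subunit protein fused to ubiquitin, had 203 and 159 CPM per kb. Ribosomal proteins whose symbols lie outside the rule were set beside it. Fau, a fusion of a ubiquitin-like protein with a small subunit protein, had 236 and 195 CPM per kb. Rack1, a scaffold protein on the small subunit, had 178 and 83.7. Both means lay between the 25th and 75th percentiles of the core genes.

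The X-linked core genes were Rpl10, Rps4x, Rpl36a and Rpl39. Rpl10 had 366 and 258 CPM per kb, Rps4x had 219 and 141, Rpl36a had 78.7 and 59.6, and Rpl39 had 127 and 44.3. All 4 were higher in library 1, as were 74 of the 77 core genes and 61.5% of all counted genes. The 77 core genes lay on 19 chromosomes, with 14 of them on chromosome 7.

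The paralogs were compared per kb with the core gene they derive from. Rps27l, a gene known to respond to p53, had 161 and 150 CPM per kb, 3.79- and 3.03-fold below Rps27. Rpl7l1, a factor of ribosome assembly, had 63.4 and 80.0 CPM per kb against 256 and 167 for Rpl7, so that its share of the pair was 19.8% in library 1 and 32.4% in library 2. Rpl22l1 had 13.6 and 14.8 against 24.0 and 16.4 for Rpl22, a share of 36.3% and 47.4%. Both pairs drew closer in library 2, where the partner was lower and the paralog higher.

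Other paralogs were far below their partners. Rpl36al had 5.77 and 4.30 CPM per kb against 78.7 and 59.6 for Rpl36a, 13.6- and 13.9-fold more. Of the Rpl36al transcript 63.1% lay under exons of Gm49383, on the same strand, and 38.7% of its windows were found once. The part of this in the fold was not tested. Rpl39l, known from testis, had 2.02 and 1.12 against 127 and 44.3 for Rpl39, 63.0- and 39.7-fold more. Rpl3l, known from striated muscle, had 3 and 17 counts against 8475 and 12467 for Rpl3, and the partner was 746 times higher per kb in library 2. Rpl10l, known from testis, had 0 counts in both libraries, which allows up to 0.128 and 0.0729 CPM, against 6836 and 8486 counts for Rpl10. The 6 paralogs and retrogenes that were counted were thus Rps27l, Rpl7l1, Rpl22l1, Rps27rt, Rpl36al and Rpl39l. Rps19bp1, which is no ribosomal protein, had 21.9 and 23.8 CPM per kb.

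**Figure D3:**
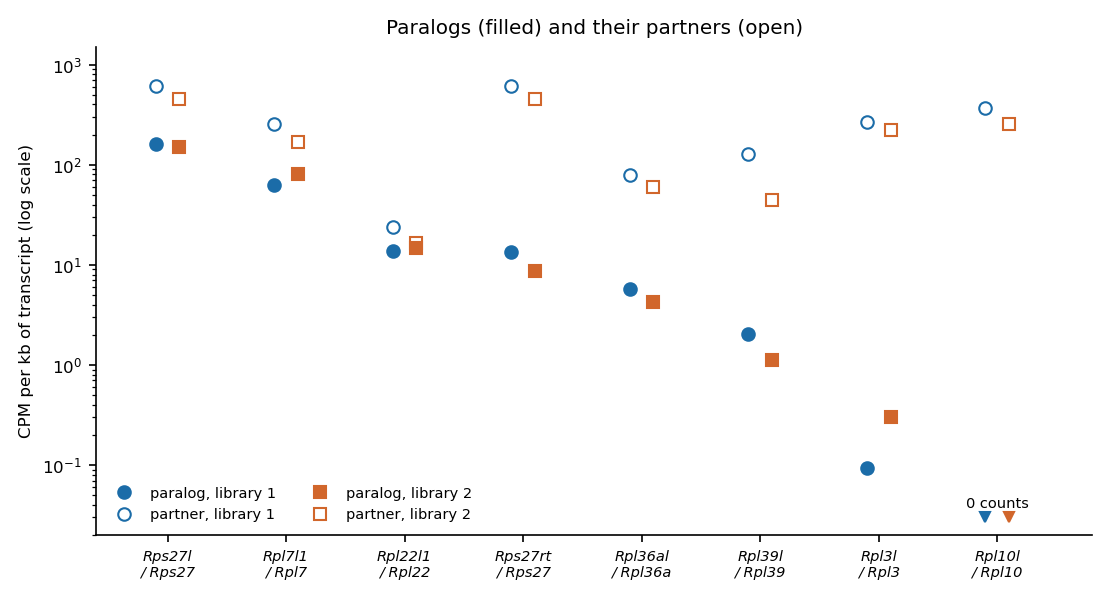
Level in CPM per kb of principal transcript (vertical axis, log scale) of the 8 paralogs or retrogenes (filled) and the core gene each derives from (open), in library 1 (circles) and library 2 (squares); triangles mark the 0 counts of Rpl10l. Rpl22l1 lies nearest its partner, and Rpl39l, Rpl3l and Rpl10l lie far below theirs.

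The ratio of libraries was then described as log2 of CPM in library 2 over library 1. It compares 2 mice of 1 group, not conditions, and has no replicate. Of the 84 counted genes of the symbol rule, Rps19bp1 included, 78 were lower in library 2 and 6 were higher, and of the 77 core genes 74 were lower and 3 higher; of all 13445 counted genes, 61.5% were lower and 38.5% higher. The median log2 ratio was -0.45 for the 84 genes and -0.26 for all counted genes. The core genes lay close together: their interquartile range lay between -0.64 and -0.35, while that of all counted genes ran from -1.03 to 0.27. The width was similar for the mitochondrial ribosomal protein genes (-0.03 to 0.30), and for genes with at least 1000 counts and a transcript of at most 1500 bases the range was -0.10 to 0.46.

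Lower in library 2 by more than 2-fold were 3 of 84, against 25.9% of all counted genes but 3.31% of the 694 short and abundant genes, a share near that of the 84. Higher by more than 2-fold were 0 of 84, against 5.74% of all counted genes. Both directions together took 31.7% of all counted genes. Most ribosomal protein genes have many counts, so the genes that reached 1000 counts in each library were also taken as background. Of these 3702 genes 56.4% were lower in library 2 and 19.3% differed by more than 2-fold, with a median log2 ratio of -0.10. Of the 75 ribosomal protein genes at that depth, 71 were lower and 3 differed by more than 2-fold, with a median of -0.46.

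Transcript length moved with the ratio across all genes: over 13439 counted genes the Spearman rho of ratio and length was -0.42, so that long transcripts had the lower ratios. Ribosomal protein transcripts are short, and the 694 short and abundant genes had a median log2 ratio of 0.23, with 30.1% lower in library 2. The 84 genes had a median on the other side of 0. With the median of genes of like GC content and length subtracted, the median of the 84 was -0.51 and 77 were below 0. Over the 77 core genes themselves the rho of ratio and length was 0.02.

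The scale of the ratio moved the direction of some genes. Scaled by TMM factors, the median was -0.03 for all counted genes and -0.22 for the 84 genes, of which 68 were below 0 and 16 above. Scaled by DESeq2 size factors, it was 0.01 and -0.18, with 65 below and 19 above. With the 13 neutrophil markers left out of the totals, it was -0.18 and -0.37, with 75 below and 9 above. These scales and totals move every gene by the same amount, so they leave the distance between both medians as it was. What part the neutrophil and other marker RNA had in the ratio was not tested.

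**Figure D4:**
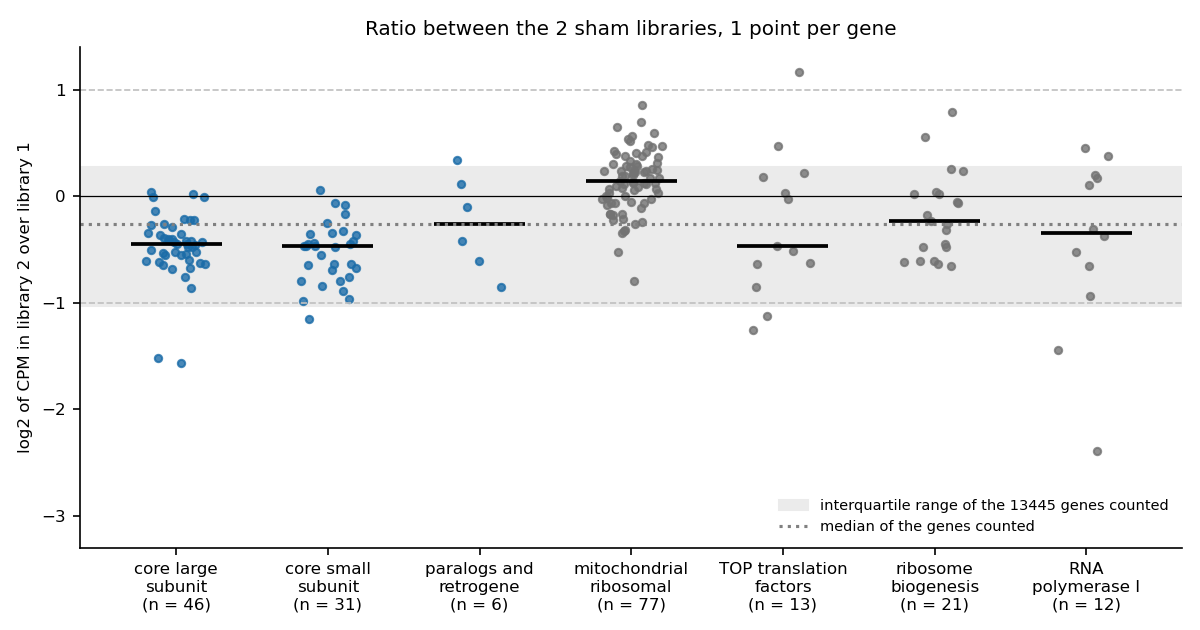
log2 of CPM in library 2 over library 1 (vertical axis) for each counted gene, in 7 lists (horizontal axis); black bars are list medians, the grey band is the interquartile range of all 13445 counted genes (-1.03 to 0.27), the dotted line is their median (-0.26) and the dashed lines mark 2-fold. Core large and small subunit genes gather around -0.45 and -0.47, and mitochondrial ribosomal protein genes around 0.15.

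Both subunits moved alike, with a median log2 ratio of -0.45 for the large and -0.47 for the small. The lowest ratio was that of Rpl12 (chromosome 2, 32961559 to 32965345, plus strand), with 2859 counts in library 1 and 1699 in library 2 despite the deeper sequencing of library 2. Its log2 ratio was -1.57 (95% interval -1.65 to -1.48, counting error only). Of its bases 4.51% lay under exons of Lrsam1, on the opposite strand, which had 686 and 199 counts. The other stalk genes had log2 ratios of -0.69 (Rplp1), -0.48 (Rplp2) and -0.46 (Rplp0).

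Rpl39, whose protein lines the exit tunnel for the nascent chain, had 1819 and 1116 counts and a log2 ratio of -1.52 (-1.63 to -1.41). Rps21 had 1378 and 1093 counts and a ratio of -1.15 (-1.27 to -1.03). Next came Rpsa, also known as a laminin receptor precursor, at -0.98 (7766 and 6926 counts) and Rps28 at -0.97 (2985 and 2690 counts). On the TMM and DESeq2 scales 2 of the 84 genes were past 2-fold, and with GC content and length taken out it was 6, all lower. The 6 were Rpl12 at -1.82, Rpl39 at -1.54, Rps24 at -1.26, Rpl5 at -1.19, Rpsa at -1.12 and the paralog Rpl39l at -1.07. Of all counted genes, 20.1% (TMM), 19.0% (DESeq2) and 12.1% (GC content and length taken out) were lower by more than 2-fold. Rpl12 and Rpl39 were past 2-fold on each of these 3 scales, and Rps21 was not.

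At the other end stood genes with higher or like CPM in library 2. Rpl7l1 had 3860 and 8579 counts and a log2 ratio of 0.34 (0.28 to 0.39, counting error only), Rps19bp1 had 430 and 819 counts and 0.11, and Rpl22l1 had 176 and 335 counts and 0.11. Of the core genes, 3 were above 0, namely Rps9 (0.06), Rpl13 (0.04) and Rpl35 (0.02). Rps6, the target of the S6 kinases, had 3213 and 5324 counts and a ratio of -0.09. For Rpl24, with 14 and 17 counts, the ratio of -0.54 had an interval of -1.64 to 0.60, so that no difference was detectable at this depth.

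Other lists of the pathway were set beside the ribosomal protein genes. Of the 78 mitochondrial ribosomal protein genes 77 were counted, and 24 were lower and 53 higher in library 2. The share lower was 31.2%, against 61.5% of all counted genes and 30.1% of the 694 short and abundant genes. The median log2 ratio of the mitochondrial ribosomal protein genes was 0.15, with 0 past 2-fold in either direction. Of all counted genes 31.7% were past 2-fold, and of the 694 short and abundant genes 23 were lower and 35 higher by more than 2-fold. Mrps21 was the highest of the mitochondrial ribosomal protein genes (93.0 and 113 CPM per kb) and Mrpl53 had 0 counts in both. On the TMM and DESeq2 scales their median was 0.38 and 0.42, a shift that all genes share. With GC content and length taken out it was 0.12, and that of the cytosolic genes was -0.51.

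The translation factors whose mRNAs are also known to carry a TOP element were mixed. Of 13 counted, 8 were lower and 5 higher in library 2, with a median log2 ratio of -0.47. The share lower was 61.5%, the same as for all counted genes, whose median was -0.26. Lower by more than 2-fold were 15.4% of the 13, against 25.9% of all counted genes. Eef1a1, which brings aminoacyl-tRNA to the ribosome, was the highest (709 and 455 CPM per kb, ratio -0.64). Eef2, the translocation factor, had a ratio of -1.25 and Eif4b, the lowest of the list (24.3 and 11.2 CPM per kb), had -1.12, both past 2-fold. Eif4a2, an RNA helicase of initiation, was past 2-fold the other way, at 1.17 (1226 and 4852 counts). With GC content and length taken out none of these 3 was past 2-fold, at -0.53, -0.06 and 0.89, and the median of the list was -0.29.

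Ribosome assembly genes had a median log2 ratio of -0.23. Of 21, 14 were lower (66.7%, against 61.5% of all counted genes) and 7 higher, and 0 were past 2-fold (against 31.7%). Eif6, which keeps the subunits apart until the large one is mature, was the highest (84.1 and 98.9 CPM per kb), and Tsr1 was the lowest (4.77 and 3.07). Of 12 genes of RNA polymerase I, which makes the ribosomal RNA, 7 were lower (58.3%, against 61.5% of all counted genes) and 5 higher. Their median was -0.34, or -0.12 with GC content and length taken out. Lower by more than 2-fold were 2 of them (16.7%, against 25.9% of all counted genes). These were Polr1b at -2.39 (758 and 254 counts) and Polr1a at -1.44, with -1.33 and -0.16 after the same adjustment. Polr1d was the highest (46.5 and 52.3 CPM per kb) and Polr1a, the catalytic subunit, was the lowest (5.12 and 1.89).

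Among 12 genes that regulate the translation of TOP mRNAs or their transcription, 8 were lower in library 2 (66.7%, against 61.5% of all counted genes) and 4 higher. The median log2 ratio was -0.46 (-0.06 with GC content and length taken out). Lower by more than 2-fold were 5 (41.7%, against 25.9% of all counted genes). Those were Tsc2 (-2.97), Mtor (-1.91), Rptor (-1.71), Larp1 (-1.68) and Tsc1 (-1.15), all with annotated transcripts of 6018 to 8564 bases. With GC content and length taken out, Tsc2 had -1.52, Mtor -0.46, Larp1 -0.23, Tsc1 0.13 and Rptor 0.00. Myc was the highest of the list (65.6 and 62.6 CPM per kb) and Mtor the lowest (3.26 and 0.866).

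Fau and Rack1 were both lower in library 2, with log2 ratios of -0.27 and -1.09. Rack1 was past 2-fold in CPM, with 6023 and 4982 counts. On the TMM and DESeq2 scales, which raise all ratios alike, Rack1 was within 2-fold. In CPM both genes therefore lay on the same side as 74 of the 77 core genes and 61.5% of all counted genes.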

How the data were processed

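RNA of the 2 sham microglia libraries was amplified with the SMART-Seq HT kit, made into Nextera XT libraries and sequenced as paired 75-base reads. The authors checked reads with FastQC, aligned them to GRCm38 using HISAT2 and assigned them to Ensembl genes using HTSeq; what they deposited are raw read counts, whole and not normalized. Tool versions, the annotation release, the strand setting and the treatment of reads with several matches are not given in the sources used here.

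Symbols were matched through GENCODE M21 for 53706 of 53801 identifiers, and a gene's start and end are those of the deposited files, counted from 1. Counts were divided by the library total (23381026 and 41142609) and scaled to 1000000. Between genes they were divided by the length of the principal protein-coding transcript. Genes that reached 10 counts in each library entered ratios, and a count of 0 allows 3 counts. Intervals are at 95% and cover counting error only. Windows of 75 bases were searched in the annotated transcripts on both strands. The GC content and length adjustment subtracted the median of genes in the same of 10 by 10 bins, or of the same GC bin under 20 genes, and it was tested on simulated ratios, as was the window search on simulated transcripts. Both libraries form 1 group, so no test was run. TMM factors came from edgeR 4.0.16 and size factors from DESeq2 1.42.0 (R 4.3.3); other steps used Python 3.11.15, numpy 2.4.6, pandas 2.3.3, scipy 1.17.1 and matplotlib 3.10.9.

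The genes and lists were chosen with earlier results of these data known. Named by rule were the 3 highest and 3 lowest core genes of each subunit per kb, the 5 largest ratios in each direction among genes that reached 100 counts in each library, paralogs with their partners, Rps19bp1, genes under 10 counts, the stalk, Rpl5 and Rpl11, X-linked and ubiquitin-fused genes, core genes with under 50% of windows found once, Fau and Rack1, and the highest and lowest gene of each other list. Rps9, Rps6, Rps25, Rps28, Rpl41, the 10 genes rich in unique windows and the genes past 2-fold in other lists were named after their values were seen where the rule does not cover them. Some genes that the rule covers are not reported here. Alternatives were other scalings, totals, lengths and filters and each library alone.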

Additional observations from a re-analysis of the deposited data

How the results depend on the processing

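The median core level (111 CPM) and the share of counts (1.16%) kept within the spread between libraries under DESeq2 and TMM scaling, with the mitochondrially encoded genes left out of the totals, with core genes only and with ribosomal proteins of other symbols added, as did 62 of 63 alternatives for 21 named levels. Each library alone gave 92.9 to 128 CPM and 0.994% to 1.34%, values that set this spread themselves. In library 2 alone, 3 of those levels lay more than 1.5 times off their mean, Rpl12 at 41.3, Rpl39 at 27.1 and Rps21 at 26.6 CPM. The median log2 ratio of -0.45 was -0.22 with TMM, -0.18 with DESeq2 factors, -0.51 with GC content and length taken out, -0.46 for core genes only, -0.48 for genes with at least 90% of windows found once and -0.37 without neutrophil markers in the totals. The 3 of 84 genes past 2-fold became 6 with GC content and length taken out, all of them lower in library 2. Among all counted genes the share lower by more than 2-fold was 25.9%, and 12.1% with the same adjustment. The difference of subunit medians, -0.48, was -0.69 per kb of exon union, -0.42 without length, -0.33 per kb of coding length, 0.85 for genes with at least 90% of windows found once, and -0.55 to -0.51 for each library alone. The ratio of summed counts, 1.32, was 1.29 without the most abundant gene of each subunit, 1.07 for genes with at least 90% of windows found once and 1.31 to 1.33 for each library alone. The SD of log2 levels, 1.59, was 1.55 per kb of exon union, 1.49 per kb of coding length, 1.72 for genes with at least 90% of windows found once, 1.18 without overlapping genes and 1.58 to 1.62 for each library alone. The causes of these shifts were not tested. The restrictions to unique windows and to genes without overlap, coding length, the totals without neutrophil markers and the background of abundant and short genes were chosen after seeing the data. The search for windows in the whole genome was not run. A ratio of 2 libraries has no value with a library left out. No paired analysis was possible because both libraries belong to 1 group. With 2 mice, differences between libraries cannot be set against a spread within a group.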
